A study of Caenorhabditis elegans with 4 samples.

Results

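The regions described here are the peaks of MRG-1, a chromatin protein, that lie within the 2 large piRNA gene clusters of chromosome IV of Caenorhabditis elegans. They were chosen by position alone, as the peaks of the series-wide list whose midpoint falls between 4.5 and 7.0 Mb (cluster 1) or between 13.5 and 17.2 Mb (cluster 2) of IV on the WS220 assembly. Of 12147 peaks in all, 372 met the rule, 169 in cluster 1 and 203 in cluster 2. The series holds 2 ChIP samples, numbered replicates 1 and 2, and 2 input samples, and the values here come from 3 deposited peak lists: one for each ChIP replicate, with 2769 and 3895 peaks, and one for the whole series. All samples were hermaphrodites of the strain fem-2(b245), with the genotype fem-2(b245)III, kept at 20 °C. The product of fem-2 acts in sex determination and is required for sperm. Animals are labelled as young adults containing a germline but, per the growth protocol, were harvested when gravid. MRG-1 was precipitated with an affinity-purified rabbit polyclonal antibody (SDQ4068) from whole animals, so germline and somatic chromatin are mixed in every value, and a peak lists where the mixture passed a threshold.

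MRG-1 is related to mammalian MRG15, whose chromodomain binds histone H3 methylated at lysine 36, a mark laid down over transcribed genes, and it is needed for germline development. piRNAs are small RNAs that the Argonaute protein PRG-1 uses in the germline to recognise foreign transcripts. In C. elegans most are made from very short genes, each transcribed by RNA polymerase II from a promoter of its own, and these genes are packed into the 2 regions of chromosome IV, both inside introns and between protein-coding genes.

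In the gene table used here the clusters held 14204 piRNA genes of 21 bp each, 2816 in cluster 1 and 11388 in cluster 2. That is 96.5% of the piRNA genes of IV and 92.5% of those of the genome. The density was 1126 piRNA genes per Mb in cluster 1 and 3078 per Mb in cluster 2, against 44.8 per Mb on the rest of IV. The same intervals held 938 protein-coding genes, 480 and 458, at 192 and 124 per Mb against 207 per Mb on the rest of IV. The intervals thus hold both kinds of gene, interleaved. Gene positions are on WBcel235 and may differ from the peaks' assembly by about 200 bp, and a gene is counted as under a peak by its midpoint.

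The peaks covered less of the clusters than of the rest of the chromosome, and cluster 2 less than cluster 1. In cluster 1, 17.1% of bases lay under replicate 1 peaks and 13.1% under replicate 2 peaks (15.1% ± 2.78, SD, n = 2). In cluster 2 the values were 8.68% and 6.27% (7.48% ± 1.70). On the rest of IV they were 20.9% and 16.2% (18.6% ± 3.33), and on I, II, III and V 20.2% and 16.4%. Cluster 2 was below the rest of IV in both replicates by more than the replicates differed, while the cluster 1 values overlapped those of the rest of IV, although within a replicate cluster 1 was at 0.816 and 0.810 of it. The ratio of coverage in the clusters to that on the rest of IV was 0.576 in replicate 1 and 0.557 in replicate 2. With 2 ChIP samples of 1 group, an exact two-sided permutation test over samples cannot give a p below 0.5, so the comparisons here are descriptions of both replicates without a test. Depth is unknown for these lists, and no values of the input samples were used.

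The 372 peaks were somewhat wider and higher in score than the list as a whole. Their median width was 492 bp, with a range of 146 to 15284 bp, against a median of 428 bp for all 12147 peaks. The median score, a value of the authors' peak caller whose definition is not given, was 7.49 against 6.01. Of the 372, 134 (36.0%) were in the top 25% of the whole list by score, a rank that 25.4% of all peaks held because of ties. A group of 40 peaks reached 5 kb or more, where 718 of all 12147 peaks did. Of the 40, 37 were overlapped in both replicate lists, and the support of wide peaks elsewhere was not taken.

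The left bound of cluster 2 fell within a series-wide peak, and the other bounds fell between such peaks. In cluster 1 the first peak inside was 4508551 to 4508954 (score 5.28) and the last one outside before it 4471185 to 4471701 (score 5.43). At the far edge the last inside was 6974179 to 6978853 (score 29.66) and the next outside 7012824 to 7014340 (score 31.55). In cluster 2 a wide peak at 13498974 to 13504260 (score 23.54) was the first inside, next to a narrow one at 13497700 to 13497855 (score 3.66) outside. The last inside was 17126260 to 17126656 (score 4.29), and the next outside 17249659 to 17252625 (score 43.71).

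Of the 372 peaks, 196 (52.7%, exact 95% interval 47.5 to 57.9, counting error only) were overlapped by at least 1 bp in both replicate lists, against 44.5% of all peaks. Another 117 (31.5%) were overlapped in replicate 1 alone, 21 (5.65%) in replicate 2 alone, and 38 (10.2%) in neither, against 13.6% of all peaks. Support differed between the clusters. In cluster 1, 120 of 169 peaks (71.0%) had a counterpart in both replicates, and in cluster 2, 76 of 203 (37.4%). Those seen in both had a median width of 1166 bp and a median score of 12.93, while those in neither had 199 bp and 3.89. Over all peaks the contrast was alike, with 861 bp and 9.51 against 227 bp and 3.83. All 10 of the highest-scoring peaks of each cluster were overlapped in both replicates. The support of equally high peaks elsewhere was not taken, so this is not shown to be particular to the clusters.

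The peaks lay almost entirely off the piRNA genes. Of 14204 piRNA genes in the clusters, 34 (0.239%) had their midpoint under a replicate 1 peak, where 0.807% of the piRNA genes of the genome did. Under replicate 2 peaks there were 17 (0.120%), against 0.599% for the genome. The mean was 0.180% ± 0.0846 (SD, n = 2), and 9 (0.0634%) lay under series-wide peaks, against 0.592%. The same 12 genes lay under peaks in both replicates, against 0.469% of all piRNA genes, and 14165 lay under a peak in neither. Since the clusters hold nearly all piRNA genes, the genome figure is mostly their own, and the share of bases covered is the nearer comparison. Covered in proportion to bases, 1714 piRNA genes would have lain under replicate 1 peaks and 1285 under replicate 2 peaks. The percent of bases covered was thus 50.4 times the percent of piRNA genes in replicate 1 and 75.6 times in replicate 2. Lengthening the peaks by 200 bp at each end gave a mean of 0.271%, and shortening them gave 0.0880%.

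Both clusters showed this, and the few piRNA genes elsewhere showed it less. In cluster 1, 14 and 8 of 2816 piRNA genes were under peaks in replicates 1 and 2, and the share of bases was 34.4 and 46.3 times the share of piRNA genes. In cluster 2, 20 and 9 of 11388 were under peaks, and the ratios were 49.4 and 79.4. On the rest of IV, 20 and 16 of 505 were under peaks (3.96% and 3.17%), with ratios of 5.29 and 5.12. On I, II, III and V, 65 and 59 of 487 were (13.3% and 12.1%), and the ratios were 1.52 and 1.35. The ratios of both clusters were above those of the rest of IV, and these above those of the other autosomes, in each replicate.

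Protein-coding genes in the same intervals were under peaks far more often than piRNA genes. Of 938, 210 (22.4%) had their midpoint under a replicate 1 peak and 171 (18.2%) under a replicate 2 peak, against 22.5% and 19.9% of all protein-coding genes. Both replicates covered the midpoint of 166 (17.7%), against 16.8%, and the series-wide list that of 183 (19.5%), against 21.8%. In cluster 1 the shares were 28.3% and 23.1%, and in cluster 2 16.2% and 13.1%. On the rest of IV 26.9% and 23.7% were under peaks, and on I, II, III and V 25.3% and 23.2%. The clusters together were below both in each replicate, and the share of all protein-coding genes also takes in the X. Counting a gene with any base under a peak gave a mean of 25.5%, and counting genes at least 50% covered gave 20.5%.

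**Figure D1:**
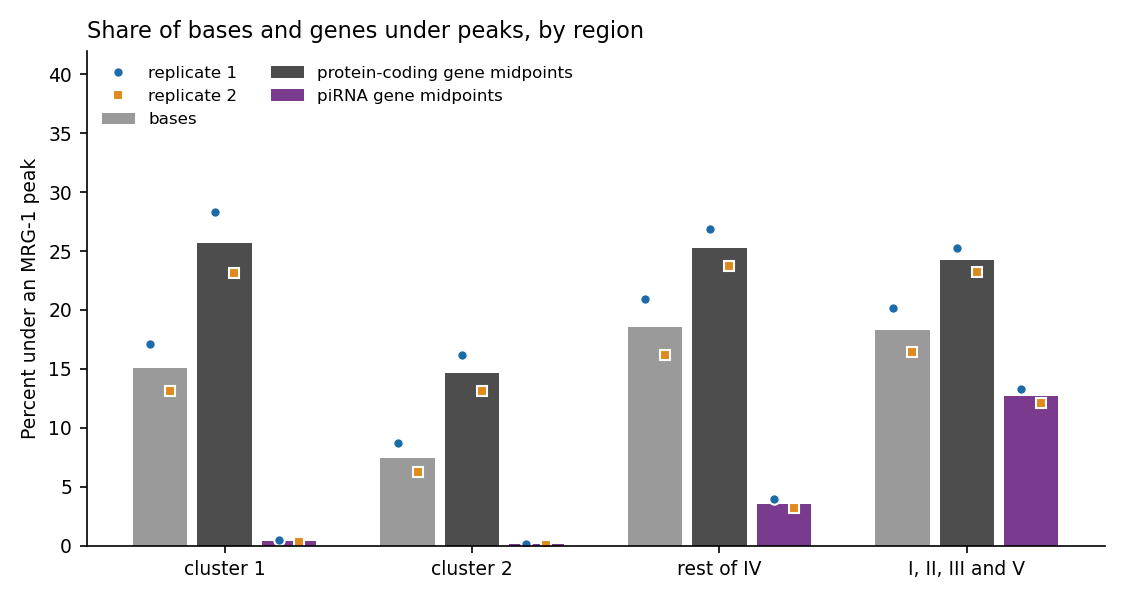
Percent of bases, protein-coding gene midpoints and piRNA gene midpoints under an MRG-1 peak in cluster 1, cluster 2, the rest of IV and the other autosomes, with bars at the mean of both replicates and each replicate as a point. The piRNA bars of the clusters stand near 0 (0.239% and 0.120% over both clusters), far under the bars for bases and for protein-coding genes of the same clusters.

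Read from the peaks, the pattern was the same. Of the 372 peaks, 364 held no piRNA gene and 8 did. By any base, 322 (86.6%) overlapped a protein-coding gene, where such genes made up 49.0% of the bases of the clusters. The share of all peaks that overlapped one was not taken, so the 86.6% is not shown to be particular to the clusters. The median distance from a peak edge to the nearest piRNA gene was 6230 bp, with quartiles at 1842 and 13751 bp, and 56 peaks (15.1%) lay within 1 kb of one or held one. In cluster 1 the median was 2924 bp and in cluster 2 9729 bp, although piRNA genes are the denser in cluster 2. The 8 peaks with a piRNA gene were all overlapped in both replicates, against 44.5% of all peaks. The share among other peaks of like width and score was not taken. Such overlap is support of the peak, since 21ur-1133, under a series-wide and a replicate 1 peak, was under no replicate 2 peak. The 8 peaks held 1 piRNA gene each except for 14953851 to 14959792, which held 2, and 5 of the 8 were at least 5 kb wide. Among the broader replicate peaks, 22 of 94 in replicate 1 and 11 of 143 in replicate 2 held a piRNA gene, and none held more than 4.

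The 12 piRNA genes under peaks in both replicates were mostly close to a peak's edge. 21ur-12654 and 21ur-12750 lay 458 and 459 bp inside a replicate 1 peak and 73 and 74 bp inside a replicate 2 peak. 21ur-6955 lay 137 and 110 bp inside. The exception was 21ur-11261, which lay 10715 bp inside its replicate 1 peak and 3470 bp inside its replicate 2 peak, within the 13564 bp series-wide peak at 5361195 to 5374758. That peak overlaps hda-6, which encodes a histone deacetylase, along with F41H10.3, elo-5 and 3 further genes. 21ur-432 was 3508 bp inside in replicate 1 but 188 bp in replicate 2, and 21ur-252 2797 bp inside in replicate 1 but 33 bp in replicate 2. Over all those under peaks the median distance from the edge was 288 bp for replicate 1 peaks and 88.0 bp for replicate 2 peaks. In replicate 1, 20 of the 34 were deeper than the 200 bp by which the assemblies may differ, and in replicate 2 only 5 of the 17.

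The density of piRNA genes was lowest inside peaks and rose outward from their edges. More than 1 kb inside peaks it was 0.708 per 100 kb in replicate 1 and 0.317 in replicate 2. Within the last 1 kb inside the edge it was 16.4 and 6.53, and in the first 1 kb outside 89.7 and 47.7. It was 184 and 164 at 2 to 5 kb and 330 and 339 beyond 50 kb. With both clusters together every step outward was higher than the one before in each replicate. Within each cluster this held out to 10 kb, and farther out it was uneven. In cluster 1 the density went from 149 and 151 at 20 to 50 kb to 139 and 110 beyond, and in cluster 2 replicate 2 from 302 at 5 to 10 kb to 300 at 10 to 20 kb. Protein-coding genes numbered 31.7 and 37.4 per 100 kb deep inside peaks and 12.7 and 12.4 beyond 50 kb, with uneven steps between. The median piRNA gene lay 39947 bp from a replicate 1 peak and 40686 bp from a replicate 2 peak, against 24056 and 24184 bp for the median base and 15589 and 17026 bp for the median protein-coding gene.

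**Figure D2:**
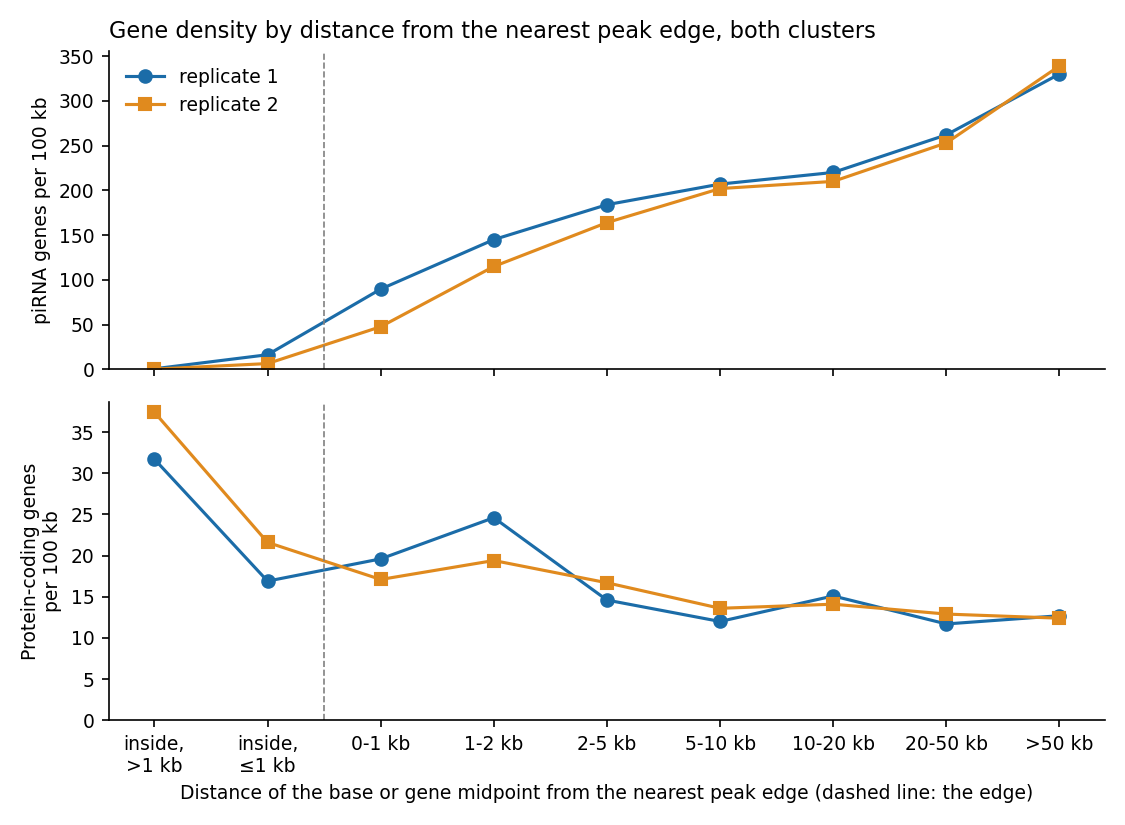
piRNA genes (top) and protein-coding genes (bottom) per 100 kb of the clusters, by distance of the gene midpoint from the nearest peak edge, with 1 line for each replicate and bins left of the dashed line inside peaks. The piRNA line climbs from 0.708 and 0.317 deep inside peaks to 330 and 339 beyond 50 kb, while the protein-coding line starts at its highest point inside peaks.

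piRNA genes were spaced unevenly, and the peaks lay mostly in places where they were missing, although many such places held no peak. The gaps of at least 5 kb between neighbouring piRNA genes numbered 117 and made up 29.7% of the bases of the clusters. They held 95.0% of the covered bases in replicate 1 and 95.8% in replicate 2. Of the 117 gaps, 57 held a peak in replicate 1 and 55 in replicate 2. Of the bases in these gaps, 38.7% and 29.3% were under peaks. In gaps under 1 kb, which made up 47.7% of the bases, 0.0968% and 0.0149% were. Of the 372 peaks, 353 (94.9%) were centred in a piRNA-free gap of at least 5 kb and 247 (66.4%) in one of at least 20 kb. For this count gaps could run past a cluster's bound, as did those of 192560 and 74078 bp at the left bounds of clusters 1 and 2. The clusters differed by length of gap. In cluster 2 the 13 gaps of at least 20 kb made up 11.3% of bases, held 77.8% and 77.4% of covered bases, and were 60.0% and 43.1% covered. In cluster 1 the 13 gaps of that length made up 23.3% of bases and were 33.9% and 24.9% covered. Gaps of 10 to 20 kb went the other way, at 12.8% ± 1.85 covered in cluster 2 and 45.4% ± 7.62 in cluster 1 (SD, n = 2). Over all gaps of at least 5 kb the means were 34.6% in cluster 2 and 33.6% in cluster 1.

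In 10-kb windows coverage fell with the number of piRNA genes. The 83 windows with no piRNA gene were 48.2% covered in replicate 1 and 35.4% in replicate 2. Windows with 1 or 2 (42) were 24.4% and 17.3% covered, those with 3 to 9 (74) 16.5% and 13.0%, and those with 10 to 29 (189) 6.17% and 4.97%. The 232 windows with at least 30 were 0.281% and 0.154% covered, and 4 of them held any part of a peak in each replicate. These steps are over both clusters together. In cluster 2 alone, coverage in replicate 2 was higher in the 22 windows with 3 to 9 piRNA genes (12.7%) than in the 15 with 1 or 2 (10.2%). Protein-coding genes per window did not follow this at each step. In the same order of classes they numbered 2.02, 2.19, 2.31, 1.63 and 0.853, so they rose at first while coverage fell. Their part in the coverage was not tested. Windows without piRNA genes were more covered in cluster 2 (65.4% and 45.7%) than in cluster 1 (38.5% and 29.7%).

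**Figure D3:**
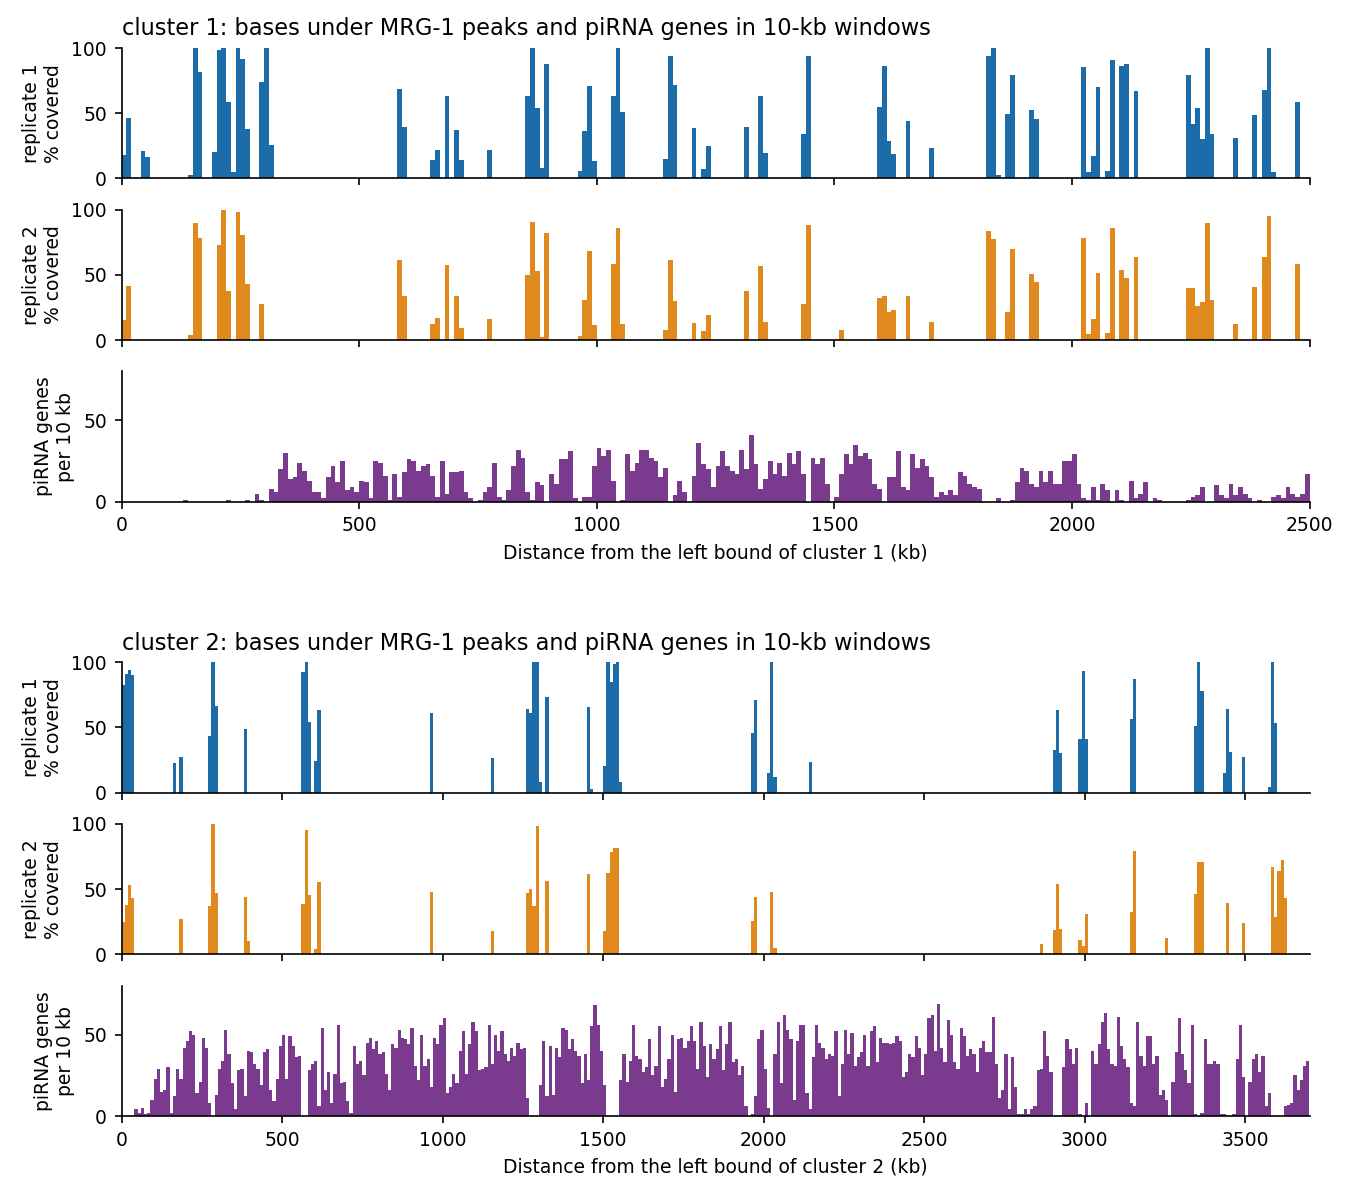
Percent of bases under replicate 1 and replicate 2 peaks and number of piRNA genes in 10-kb windows, along cluster 1 (top 3 panels) and cluster 2 (bottom 3 panels), by distance from the cluster's left bound in kb. The covered windows of both replicates mostly stand at the same places and in notches of the piRNA track, and the 232 windows with at least 30 piRNA genes are nearly bare.

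Over the 62 windows of 100 kb, Spearman's rho between the number of piRNA genes and the percent covered was -0.59 in replicate 1 and -0.60 in replicate 2. The windows are neighbours on 1 chromosome and share their libraries, so the coefficients are descriptions only. Against the number of protein-coding genes rho was 0.34 and 0.36 over both clusters. It was -0.00 and 0.01 within cluster 1, and 0.30 and 0.38 within cluster 2. Within cluster 1 the coefficient for piRNA genes was -0.40 and -0.37, and within cluster 2 -0.49 and -0.62. The 3 windows richest in piRNA genes in cluster 2, which start at 16000000, 15800000 and 15300000 and hold 486, 442 and 430 of them, had no base under a peak in either replicate. In cluster 1 the richest windows held fewer and were not bare. The window from 5800000, with 220 piRNA genes, was 12.1% and 10.8% covered. That from 5700000, with 215, was 7.10% and 3.87% covered, and that from 5500000, with 211, 21.4% and 15.7%. The replicates did not match everywhere, since the last window of cluster 2, from 17100000 with 149 piRNA genes, was 0% covered in replicate 1 and 18.0% in replicate 2.

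Long stretches free of peaks in both replicates held most of the piRNA genes. Stretches of at least 50 kb numbered 33, made up 72.4% of the clusters, and held 12502 piRNA genes (88.0%) and 596 protein-coding genes (63.5%). The 3 longest of cluster 2 spanned 712, 412 and 347 kb and held 2608, 1472 and 1194 piRNA genes, at 366, 357 and 344 per 100 kb. The first of these, from 15648419 to 16360888, held 63 protein-coding genes, among them jac-1, which encodes a p120 catenin, the receptor guanylyl cyclase gene gcy-25 and the ligand-gated channel gene lgc-19. The 412 kb stretch, from 15050792 to 15462969, held 51 protein-coding genes and also 3 series-wide peaks. The 347 kb stretch, from 14116316 to 14463212, held 46 protein-coding genes, with chemoreceptor genes of the srz and srab families and the F-box genes fbxa-126 and fbxa-83. Cluster 1 had shorter ones. One of 113 kb, from 6207111 to 6320603, held 92 piRNA genes, 34 protein-coding genes and 1 series-wide peak. The longest of cluster 1, 271 kb from 4812530 to 5083139, held 372 piRNA genes and 64 protein-coding genes, many of them str chemoreceptor genes. Another, 102 kb from 6638217 to 6740428, held only 22 piRNA genes and 6 protein-coding genes, so a peak-free stretch was not always rich in either.

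Inside protein-coding genes piRNA genes were off the peaks as well. Of the cluster piRNA genes, 5198 (36.6%) lay within a protein-coding gene and 9006 between them. Within genes, 19.5% and 15.2% of bases were under peaks but 0.404% and 0.212% of the piRNA genes. Between genes, 4.95% of bases were under replicate 1 peaks, with a mean of 4.02% over both replicates, but 0.144% and 0.0666% of the piRNA genes. In both places and both replicates the share of piRNA genes was far below the share of bases.

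Counted by host, a protein-coding gene that held piRNA genes was rarely under a peak. Of the 498 protein-coding genes of the clusters with no piRNA gene inside, 40.6% had their midpoint under a replicate 1 peak and 33.7% under a replicate 2 peak (37.1% ± 4.83, SD, n = 2). Of the 440 with at least 1, 8 (1.82%) and 3 (0.682%) did. The groups were far apart in both replicates. On the rest of IV 26.6% ± 2.30 (SD, n = 2) of the 2180 genes with no piRNA gene inside were under peaks, and 7.98% and 5.52% of the 163 with at least 1. The piRNA-free genes of the clusters were thus under peaks more often than those of the rest of IV, and the piRNA-holding genes less often, in each replicate.

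Gene length differed between these groups, with a median of 1409 bp for genes without and 2709 bp for genes with a piRNA gene inside. The shares were therefore also taken within bands of length, chosen after the values had been seen. Of genes of 1 to 2 kb, 37.2% and 33.3% of the 156 without piRNA genes were under peaks, and 1.65% and 0% of the 121 with them. Of genes of 2 to 4 kb, 52.6% and 46.5% of the 114 without were, and 1.40% and 0.699% of the 143 with them. Of genes of 4 kb or more, 62.3% and 44.3% of the 61 without were, and 2.70% and 1.35% of the 148 with them.

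Among genes with none inside, the share under peaks rose with the distance from the gene's midpoint to the nearest piRNA gene. Under 1 kb it was 5.26% and 3.51% of 114 genes. At 1 to 2.5 kb it was 28.1% ± 4.42 (SD, n = 2) of 128, and at 2.5 to 5 kb 51.7% and 44.9% of 89. At 10 kb or more it was 67.7% and 59.4% of 96. On the rest of IV the same classes ran from 14.3% and 10.7% of 28 genes to 30.6% and 27.6% of 1426. Median gene length rose along the cluster classes too, from 612 to 2586 bp, and its part was not tested.

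**Figure D4:**
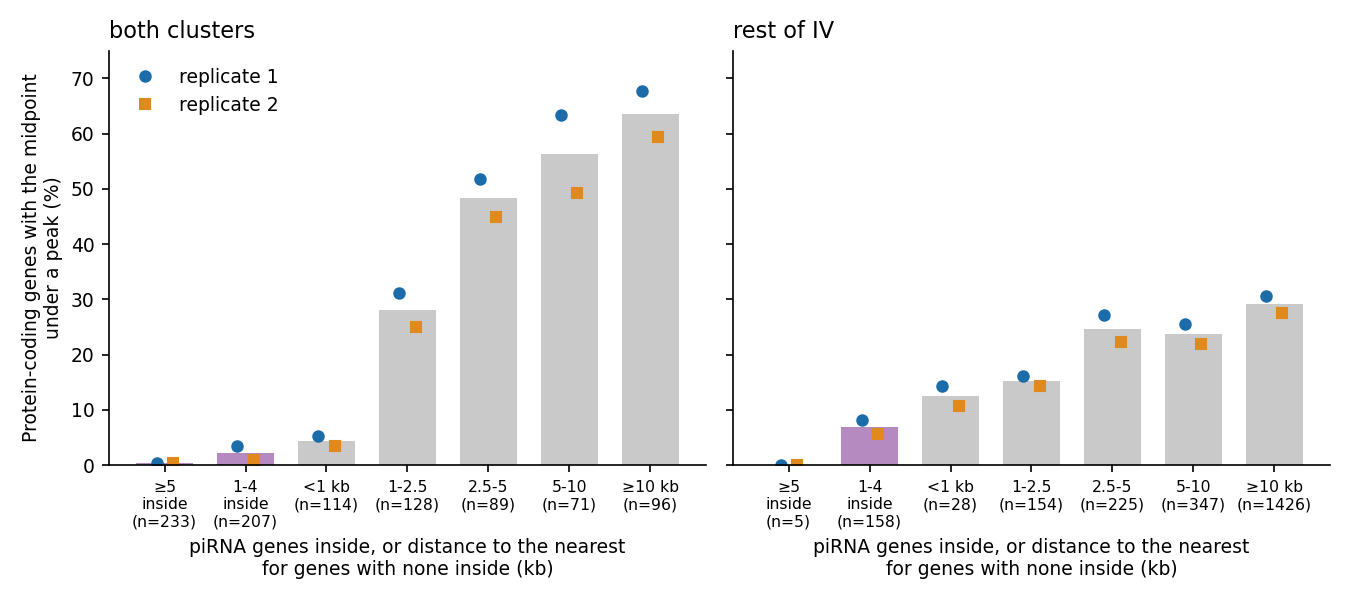
Percent of protein-coding genes with the midpoint under an MRG-1 peak, by the number of piRNA genes inside (purple bars) and, for genes with none, by distance to the nearest piRNA gene (grey bars), in the clusters (left) and on the rest of IV (right), with bars at the mean and points for each replicate. In the clusters the share goes from 0.429% for genes with 5 or more inside to 67.7% and 59.4% for genes at least 10 kb away, and on the rest of IV it ends at 30.6% and 27.6%.

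The genes with the most piRNA genes inside had almost no base under a peak. In cluster 1 these were kcc-2, which encodes a potassium-chloride cotransporter, with 98, unc-5, the netrin receptor gene, with 97, and the forkhead gene fkh-7 with 78. All 3 had 0% of their bases covered in both replicates. unc-77, a sodium leak channel gene with 63 inside, had 2.86% in replicate 1 and 0% in replicate 2. In cluster 2 jac-1 held 142 piRNA genes, Y105C5A.15 118, and the potassium channel gene egl-23 106, and each was at 0% in both. Shorter, but still long, genes without piRNA genes varied. lag-1, which encodes the transcription factor of the Notch pathway, is 15249 bp long with no piRNA gene inside and was 89.1% and 39.5% covered. rsd-2, needed for systemic RNA interference, is 18296 bp long with none inside and was 89.7% and 42.4% covered. F28E10.1 (21457 bp), nearest in length to the piRNA-rich genes named above, was at 0% in both replicates, and rom-4 (19132 bp) at 9.06% and 10.3%.

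The 8 piRNA-holding genes under a peak by midpoint were F15B10.3, lin-45, nkcc-1, Y57G11C.14, hhat-2, ntl-11, Y73F8A.26 and Y116A8C.10, of which lin-45, nkcc-1 and hhat-2 were so in both replicates. lin-45, the worm Raf kinase gene, held 1 piRNA gene and was 96.1% and 65.6% covered. nkcc-1, a sodium-potassium-chloride cotransporter gene, held 26 in its 16337 bp and was 52.6% and 36.2% covered, yet none of its 26 piRNA genes lay under a peak of either replicate. nkcc-1 thus had peaks and piRNA genes in separate stretches of 1 gene.

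Some genes were covered whole. In cluster 1, 79 of 480 protein-coding genes (16.5%) lay entirely under peaks in both replicates, and in cluster 2, 38 of 458 (8.30%). The share of such genes outside the clusters was not taken, so whether these shares are high or low is not known. The longest in cluster 1 were F41H10.3 (4977 bp), seu-1, cec-6, which encodes a chromodomain protein, zen-4, a kinesin gene of cytokinesis, and the proteasome gene rpn-1. Then came hrpf-2, tebp-2, which encodes a telomere-binding protein, the mitochondrial genes miro-1 and drp-1, and pgl-1, a P granule gene. In cluster 2 the longest was set-26 (9093 bp), which encodes a SET-domain chromatin protein, followed by ccar-1, the glutamine tRNA synthetase gene qars-1, Y41E3.1 and melo-1. The next were gly-10, lact-9, coq-3, which acts in ubiquinone synthesis, sec-61.A, a subunit of the protein translocon, and Y57G11C.36. None of these 20 genes held a piRNA gene.

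Along genes of at least 1 kb, coverage was nearly level. Over all 743 such genes, 20.7% and 16.2% of positions 1 kb outside the gene ends were under peaks, 23.3% and 19.0% of the ends and 22.1% and 18.2% of the middles. For the 331 with no piRNA gene inside, the shares were 39.0% and 30.8% outside, 46.7% and 38.8% at the ends and 47.1% and 39.9% in the middle. For the 412 with at least 1 they fell inward, from 6.07% and 4.37% outside to 2.06% and 0.728% in the middle. The gene table gives no strand, so both ends of a gene were pooled.

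The 10 highest peaks of each cluster overlapped between 1 and 8 protein-coding genes each. The highest of cluster 1, 4739896 to 4754446 (14551 bp, score 64.56), overlaps elac-2, the mitochondrial import gene timm-17B.1, the cilium gene tctn-1, the cytochrome c gene cyc-2.1 and the ribosomal protein gene rpl-18A, in a gap of 37996 bp. The next, 4658044 to 4666561, overlaps mrps-21, a mitochondrial ribosomal protein gene, and jmjd-1.2, a histone demethylase gene, in a gap of 99404 bp. That gap also holds the ninth, over the SUMO-conjugating enzyme gene ubc-9 and psr-1. That at rank 3, 6321605 to 6330626, overlaps the RNA-binding protein gene sqd-1, lsm-8 and seu-1. Others of the 10 overlap odr-8 with dnj-11, smg-3, which acts in nonsense-mediated decay, with hrpf-2, and drh-1, a helicase gene of antiviral RNA interference. The eighth, 5729688 to 5732076 over H35B03.1 and H35B03.2, lay in a gap of only 3129 bp, and the tenth, 6631922 to 6634908 over C01B10.9, in one of 9374 bp. Of the 10, 1 held a piRNA gene, at 5159021 to 5161751 over C24D10.6 and C24D10.4, where the piRNA-free gap was 3149 bp.

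In cluster 2 the highest peak, 16650242 to 16658378 (score 67.14), overlaps set-26 and tsr-2. It held 1 piRNA gene and was centred in a gap of 16451 bp. The second, 13776097 to 13791380, overlaps rpl-18, gly-10, the iron-sulfur scaffold gene iscu-1 and the centriole gene sas-6, in a gap of 21760 bp. That at rank 3, 15035964 to 15047944, overlaps the Fanconi anaemia gene fcd-2, the elongation factor gene eef-1B.2 and hrpu-1, in a gap of 45848 bp. The same gap holds the eighth, 15023794 to 15029337 over Y41E3.7, fcd-2 and Y41E3.8. Others of the 10 overlap gdi-1, coq-3, nuo-3 and arl-8, the helicase gene mel-46 with gtsf-1, whose product acts in small RNA pathways, snr-1 with snx-13, vti-1 with mrps-7, ari-1.4, and ntl-11 with fdx-2. Of the 10, 2 held a piRNA gene, the first named and 15467717 to 15475075 over ntl-11, fdx-2 and Y73F8A.26.

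The gene lists left out 755 of the 938 protein-coding genes of the clusters, of which 23.0% and 18.4% were under peaks in replicates 1 and 2, and the listed genes were described by group. The germline list had 8 members in the clusters, and all 8 were under a replicate 1 peak and 7 under a replicate 2 peak, against 78.3% and 69.6% of the whole list. These are htp-1, htp-2 and him-3, which build the axis of meiotic chromosomes, the oocyte yolk receptor gene rme-2, the Pumilio-family genes puf-3 and puf-11, pgl-1, and lip-1, the one covered in replicate 1 only (87.4% of its bases, and 30.1% in replicate 2). him-3, htp-1, htp-2, puf-3, puf-11 and pgl-1 were 100% covered in both. The 2 members of the small RNA list, snpc-3.1, a subunit gene of the small nuclear RNA activating complex, and drh-1, were under peaks in both, against 68.4% and 70.9% of the whole list. So were the 3 chromatin regulator genes jmjd-1.2, cec-6 and set-26, against 65.7% and 62.9% of theirs.

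All 7 ribosomal protein genes of the clusters, among them rpl-18A, rps-25, rpl-18 and rps-18, were 100% covered in both replicates, and 85.9% of the whole list were under peaks in each. Of 5 proteasome, translation and chaperonin genes, all 5 were under peaks in replicate 1 and 4 in replicate 2, the exception being eif-1.A, against 85.7% and 86.7% of the list. Of 3 splicing genes 2 were in both, and uaf-2 in replicate 2 alone, against 79.4% and 82.4% of the list. The 3 respiratory chain and mitochondrial genes, timm-17B.1, cyc-2.1 and nuo-3, were in both, against 82.2% of the list in each. Together these 7 lists had 31 genes in the clusters, of which 30 (96.8%) and 29 (93.5%) were under peaks, against 79.1% and 78.3% of the 607 genes of these lists in the whole genome, and none of the 31 held a piRNA gene.

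The other 10 lists had 152 genes in the clusters, of which 6 (3.95%) and 3 (1.97%) were under peaks, close to the 4.40% and 3.11% of the 3181 genes of these lists in the whole genome, and 104 (68.4%) held at least 1 piRNA gene. The lists were joined in these 2 sets after their values had been seen. None of the 84 chemoreceptor genes, which encode sensory receptors of the str, srw, srz and related families, was under a peak in either replicate, and 68 held a piRNA gene. Over the whole genome 0.229% and 0.0765% of 1308 chemoreceptor genes were under peaks. None of the 8 ion channel genes, such as acr-24, which held 40 piRNA genes, and lgc-52, which held 45, and none of the 5 nuclear hormone receptor genes was under a peak. The members of these lists under peaks in both were clec-178, col-111 and cyp-31A3, and those in replicate 1 alone were fbxa-215, bli-6 and nlp-56. None of these 6 held a piRNA gene.

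All 18 major sperm protein and sperm-specific genes of the clusters lay in cluster 1, and none was under a peak in either replicate, although 16 of them held no piRNA gene. msp-53, for example, had its midpoint 4857 bp from the nearest piRNA gene, msp-58 6602 bp and spe-51 34851 bp, and each had 0% of its bases covered. The msp genes are near-identical copies whose reads may not be placed apart, and how such reads were handled is not given, so their values are uncertain. Over the genome 7.37% and 4.21% of the 95 genes of that list were under peaks. Other lists had such genes too: 1 of 7 collagen genes held a piRNA gene, and 5 of the 7 were under no peak. A protein-coding gene of the clusters without piRNA genes was therefore not always under a peak, and among the 498 such genes 296 and 330 were not, in replicates 1 and 2.

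**Figure D5:**
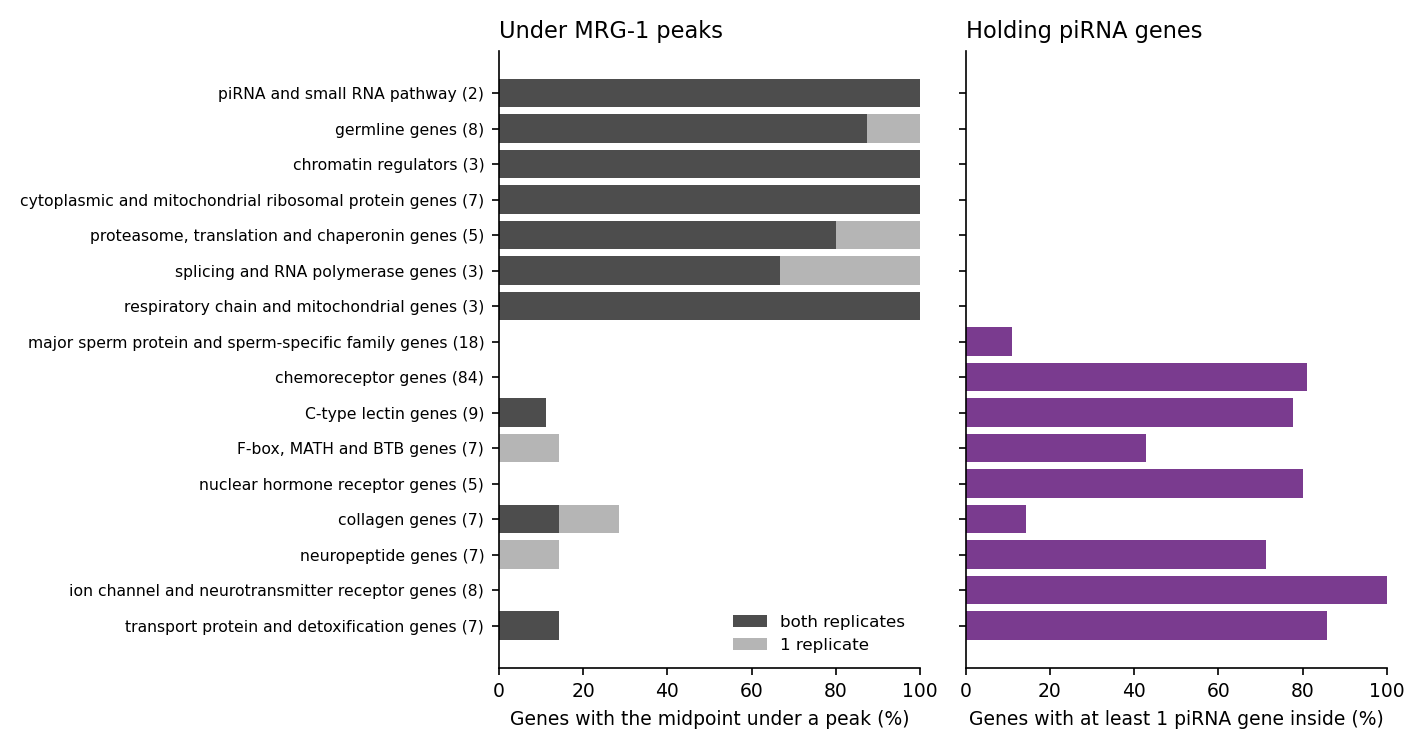
Left, percent of the cluster members of each gene list (number in brackets) with the midpoint under an MRG-1 peak in both replicates (dark) or in 1 (light); right, percent holding at least 1 piRNA gene. The upper 7 lists are nearly filled on the left and empty on the right, the chemoreceptor and ion channel lists are the reverse, and the sperm list is at 0 on the left and low on the right (2 of 18).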

How the data were processed

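ChIP-seq of MRG-1 was done on 2 samples, with 2 inputs. The submitters' processing notes name BWA and ce10. Peak positions are on WS220, per the file headers, and the source column names MACS for the replicate lists and MACS v2 for the series-wide list. Each peak has a score deposited by the authors, undefined in the files, which served here for ranking and filtering within each list. Thresholds, duplicate handling, use of the input and any pooling and depth are unstated there: not given in the sources used here. A list drawn at another threshold or depth would cover another share of bases, so replicates are given side by side. Nothing in the labels says whether the replicates were separate cultures.

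From the lists, covered bases, overlaps of at least 1 bp and genes with the midpoint under a peak were computed per replicate with numpy 2.4.6, scipy 1.17.1 and pandas 2.3.3 under Python 3.11.15, and drawn with matplotlib 3.10.9. Genes and names come from the RefSeq gene table on WBcel235, which has no strand and no sequence, so midpoints replaced the planned gene starts and a planned search for promoter motifs was not run. The rest of IV ends at the last peak, except where genes are classed by piRNA content, which takes all of IV. Interval counting was tested on simulated data. Exact intervals are Clopper-Pearson at 95%. The peaks and the 17 gene lists were chosen with earlier results of these data known. The text names the 10 highest peaks, 3 longest peak-free stretches, 3 richest 100-kb windows and 10 longest fully covered genes of each cluster, and genes of the lists. Other genes (those with the most piRNA genes or the longest, those holding piRNA genes under peaks, and single piRNA genes) were named after their values were seen. Alternatives were each replicate left out, peaks lengthened or shortened by 200 bp, the top 50% by score, the series-wide list and other window sizes.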

Additional observations from a re-analysis of the deposited data

How the results depend on the processing

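No result with a direction reversed under the alternatives run. With the top 50% of each list by score, the ratio of coverage in the clusters to the rest of IV went from 0.567 to 0.611, peaks supported in both replicates from 52.7% to 39.2% (of all peaks, from 44.5% to 33.8%), protein-coding genes under peaks from 20.3% to 17.2%, and those without a piRNA gene inside from 37.1% to 31.4%. With the series-wide list the coverage ratio was 0.540, piRNA genes under peaks 0.0634% (0.0962% inside and 0.0444% outside protein-coding genes), rho over windows -0.60, and the share of covered bases in piRNA-free gaps of at least 5 kb 96.1%. Counting peaks per Mb gave a ratio of 0.458. Any base under a peak raised protein-coding genes to 25.5%. With peaks lengthened by 200 bp at each end, piRNA genes under peaks came to 0.271% (0.189% outside protein-coding genes), the middle of genes exceeded 1 kb outside by 1.14 percentage points in place of 1.68, and the gaps held 94.8% of covered bases. With shortened peaks, piRNA genes came to 0.0880% (0.125% inside genes). Windows of 50 and 250 kb gave rho -0.56 and -0.77. Stretches of at least 50 kb held 90.6% of piRNA genes when only bases under peaks in both replicates counted as peak. Leaving out 1 replicate gave support of 58.3% to 84.1% (53.6% to 77.3% of all peaks), which then asks for overlap in 1 list only, and 89.1% to 89.5% of piRNA genes in such stretches. The alternatives for genes with and without piRNA genes inside and for the gaps were chosen after seeing the data. The piRNA promoter motif was not run. No paired analysis was possible because the inputs, which share the replicate numbers, have no values here. Depth is unknown, so a base outside all peaks is not shown to lack MRG-1.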
